A study of Homo sapiens with 36 samples.

Results

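A2780 is a human ovarian cancer cell line, and the cis line is a derivative of it that was selected with cisplatin and resists platinum drugs. RNA of the sensitive cells (wt) and of the resistant cells (cis), both grown in complete medium with no carboplatin, was compared here over all genes. The 6 libraries used, 3 of wt and 3 of cis cells, were chosen by the labels for cell line and treatment, out of 36 libraries of 12 conditions. The labels name no transgene and no day of harvest for either group. By the legends of the study the 3 libraries of each group are technical replicates. Their p-values therefore measure the spread between libraries and not between cultures, and 1 resistant line was set against 1 parental line.

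Cisplatin and carboplatin kill cells by linking bases of DNA, and cells survive them by taking up less drug, binding it to thiols, repairing or tolerating the lesions, or failing to start cell death. Carcinomas of the ovary of the common serous type carry Mullerian markers such as PAX8, WT1 and the surface mucin MUC16. Cell lines are also described by epithelial genes, which hold cells together in sheets, and by mesenchymal genes, which belong to migrating and matrix-forming cells.

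Expression is given as CPM, which divides each count by the size of its library after TMM scaling, and ± marks the SD over 3 libraries. Total counts on genes ran from 17937923 to 18788646 in wt and from 15287889 to 18768404 in cis libraries. The share of counts from mitochondrial genes was 3.35% to 4.80% in wt and 2.99% to 3.77% in cis libraries. A log2 fold change is cis over wt, so that a positive value means a higher level in cis cells, and a value alone in parentheses after a level is this quantity. A gene was called when its adjusted p-value from edgeR's quasi-likelihood test was under 0.05, and a 2-fold call also asked for a log2 fold change of at least 1 in either direction.

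The resistant cells differed from the parental cells in most genes that could be tested, and most differences were small. Of 14431 genes tested, cis cells had 39.4% called higher and 39.1% called lower. The median log2 fold change was -0.004 and the median of its absolute value was 0.44. The larger differences leaned towards loss in cis cells. A 2-fold call was made for 1402 genes (9.72%) higher and 2147 genes (14.9%) lower in cis cells, and a called difference of over 16-fold was held by 292 genes higher and 610 genes lower. In 7 of the 3549 2-fold calls the CPM values of the groups overlapped. With at least 10 counts asked of every library, the numbers of 2-fold calls were 861 and 1124, since that filter removes genes absent from either line.

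**Figure D1:**
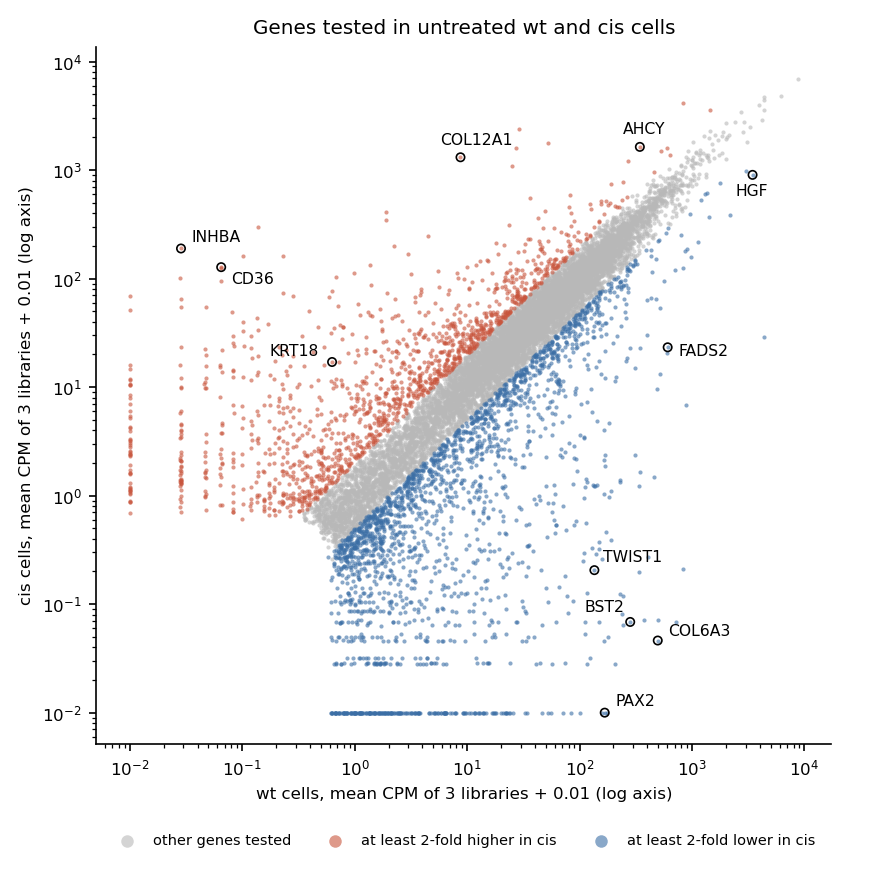
Mean expression of each of the 14431 genes tested in wt (horizontal axis) and cis cells (vertical axis), as CPM of 3 libraries plus 0.01, on log axes. Red points are genes called at least 2-fold higher and blue points at least 2-fold lower in cis cells. The column of points at the left edge and the row at the bottom are genes with 0 counts in the 3 libraries of one line, such as PAX2 in cis cells.

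A part of the 2-fold calls was made of genes that were read in one line and were all but absent in the other. With at most 3 counts in each library of one line and a mean of at least 50 counts in the other, 217 genes were seen in wt cells alone, 178 of them protein-coding, and 87 in cis cells alone, 77 of them protein-coding. In 85 and 23 of these, the other line had 0 counts in all 3 libraries. A mean of at least 1000 counts was reached by 30 genes of the first and 9 genes of the second set. For such genes the counts are given, with a ratio of the pooled counts and its exact 95% interval, which covers counting error only, or, with 0 counts in the other line, a lower bound of the fold taken against 3 counts over the 3 libraries. In RNA from many cells, fewer cells that express a gene and less RNA in each cell cannot be told apart.

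The set seen in wt cells is described by its members with most counts. DLX6-AS1, a long noncoding RNA at the DLX5 and DLX6 homeobox genes, had 39116 against 3 counts in wt and cis cells. Both neighbours went with it, with 13408 against 3 counts for DLX5 and 6721 against 1 counts for DLX6, and the span of DLX6-AS1 overlaps that of DLX6, so reads of the pair may have been split by the counting. ARHGAP28, a GTPase-activating protein, was at 498, 509.5 and 495 CPM in wt libraries. COL6A3 (ENSG00000163359, chromosome 2, 238232646 to 238322971), a chain of the microfibrillar collagen VI, was at 499, 499.9 and 488 CPM in wt and 0, 0.0535 and 0.0552 CPM in cis libraries. COL1A2, a chain of the fibrillar collagen I, had 20416 against 3 counts, a ratio of 6485 (95% interval 2219 to 31450.3). The wt libraries stood apart from the cis libraries in each of these genes, which the rule that picked the set made all but certain. OTOA, which encodes otoancorin of the inner ear, was at least 3038-fold lower in cis cells, and RGS1, a regulator of G protein signalling, at least 2769-fold lower. The same bound was 1737 for the transcriptional coactivator EYA4, 1469 for the microtubule-severing ATPase FIGN and 1232 for CNNM1.

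The set seen in cis cells is described in the same way. INHBA (ENSG00000122641, chromosome 7, 41706766 to 41745432) encodes the subunit from which activin A is built. It had 0, 1 and 0 counts in wt and 2842, 3461 and 3574 counts in cis libraries, which gave 185, 185 and 197 CPM in the cis libraries, and the ratio of the pooled counts was 10364 (95% interval 1859.8 to 409415). FILIP1, a partner of the actin crosslinker filamin, had 15494 against 7 counts in cis and wt cells. CD36 (ENSG00000135218, chromosome 7, 79998891 to 80308593), a scavenger receptor that takes up fatty acids, was at 128, 125 and 129 CPM in cis libraries, with a ratio of 2323 (95% interval 795 to 11267). TBR1, a transcription factor of cortical neurons, had 6504 against 3 counts and PTGER3, a receptor for prostaglandin E2, 5242 against 1 counts. ST3GAL1, a sialyltransferase, was at least 1250.5-fold and DNAJC6, which encodes the clathrin-uncoating cochaperone auxilin, at least 931-fold higher in cis cells. Of the wt set, 216 genes were looked up by symbol and 141 had a RefSeq promoter window. Of these, 53.2% had a window with a CpG observed to expected ratio of at least 0.6, against 78.2% of 55 matched genes of the cis set and 88.0% of the 10589 matched genes tested, and 51.9% of all 27305 genes with a window.

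The lineage markers were read next. Of 9 Mullerian and ovarian markers, 8 were under 1 CPM in every library, PAX8, WT1, MUC16 and ESR1 among them, and SOX17 had 0 counts. The summed level of the 9 markers was 166.9 to 169.7 CPM in wt and 0.131 to 0.496 CPM in cis libraries, and PAX2 carried it. PAX2 (ENSG00000075891, chromosome 10, 102495153 to 102589701), a paired-box factor of the developing kidney and Mullerian duct, had 3023, 2997 and 3131 counts in wt and 0, 0 and 0 counts in cis libraries, at least 2907-fold lower in cis cells. Thus the serous markers PAX8, WT1 and MUC16 were near 0 in both lines, while PAX2 was high in wt cells. In the longer list of 31 lineage factors, 12 were tested, of which 1 was called 2-fold higher and 7 lower in cis cells. Of all genes, 9.72% were 2-fold higher and 14.9% lower. With at least 10 counts in every library, 3 of the list were 2-fold lower. FOXL2, the factor of granulosa cells, was at 22.3, 22.6 and 23.3 CPM in wt and had 0 counts in cis libraries, at least 395-fold lower. TBX18, a T-box factor of the urogenital mesenchyme and heart, was at least 138-fold lower. Other factors of this list made no 2-fold call: MEIS2 had a log2 fold change of 0.83, and NR2F1 was at 426 ± 6.19 and 424 ± 12.7 CPM in wt and cis cells, a difference that was not called.

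Both lines read as mesenchymal rather than epithelial by their markers, and more mesenchymal genes were lower than higher in the resistant cells. Of 9 epithelial markers, 7 were under 1 CPM in every library, CDH1 and EPCAM among them, and KRT7 and GRHL2 had 0 counts. The summed epithelial level was 1.85 to 2.22 CPM in wt and 16.4 to 19.5 CPM in cis libraries. KRT18 (ENSG00000111057, chromosome 12, 53342655 to 53346690), a keratin of simple epithelia, was at 0.615, 0.5 and 0.742 CPM in wt and 17, 15.7 and 18.4 CPM in cis libraries (log2 fold change 4.76, SE 0.157, adjusted p = 1.63e-29). Its partner keratin gene KRT8, whose span overlaps that of KRT18, was at 0.348 ± 0.181 and 0.588 ± 0.205 CPM in wt and cis cells, which was not called (adjusted p = 0.113 in the edgeR test), and it was called (log2 fold change 1.21) with wt replicate 2 left out. The longer list of 33 epithelial genes differed in both directions, with 11 tested. Of these, 3 were called 2-fold higher and 4 lower, against 9.72% and 14.9% of all genes. CLDN1 and OCLN, of tight junctions, were higher beside KRT18 (log2 fold changes of 2.30 and 1.17). EPCAM, TJP3, the protease PRSS8 and the transcription factor ELF3 were lower, with log2 fold changes of -2.27, -1.82, -5.08 and -7.04. EPCAM stayed under 1 CPM, and ELF3 had means of 62.7 and 0.333 counts in wt and cis libraries. With at least 10 counts in every library, 1 epithelial gene was 2-fold lower.

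Among 30 mesenchymal genes, 24 were tested, and 2 (8.33%) were called 2-fold higher and 12 (50%) lower in cis cells. The shares of all genes were 9.72% and 14.9%. Their median log2 fold change was -0.92. VIM, the intermediate filament of mesenchymal cells, was at 3103 ± 38 and 1823 ± 90.2 CPM in wt and cis cells (log2 fold change -0.77, SE 0.027). CDH2, the N-cadherin gene, was at 207, 211 and 212 CPM in wt and 12.3, 12.5 and 12.6 CPM in cis libraries (log2 fold change -4.07, SE 0.0427, adjusted p = 1.91e-49). The groups did not overlap for either gene. TWIST1 (ENSG00000122691, chromosome 7, 19060614 to 19157259), a factor that drives mesenchymal transition, was at 134, 139 and 133 CPM in wt and 0.261, 0.16 and 0.165 CPM in cis libraries, 681-fold lower in cis cells. Its relative TWIST2 had 0, 0 and 0 counts in wt and 56, 63 and 53 counts in cis libraries and was at least 60.2-fold higher. The repressor SNAI2 was lower (121 ± 2.33 and 57.1 ± 2.19 CPM in wt and cis cells) and its relative SNAI1 higher (1.53 ± 0.0234 and 8.22 ± 0.683 CPM in wt and cis cells), with log2 fold changes of -1.08 and 2.42. ZEB1 had a log2 fold change of -0.34. So each pair of related factors, TWIST1 with TWIST2 and SNAI2 with SNAI1, moved in opposite directions. The contractile genes CALD1, TAGLN and ACTA2 were all lower, with log2 fold changes of -2.91, -3.29 and -3.50, while TPM2 had a log2 fold change of 0.34.

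Neural and pluripotency genes were read next. NES, which encodes the intermediate filament nestin of neural progenitors, was at 841, 810.0 and 852 CPM in wt and 122, 130.2 and 127 CPM in cis libraries (log2 fold change -2.72, SE 0.0273, adjusted p = 3.36e-50). Of 10 neural genes tested among 27 listed, 8 were called lower, 7 of them by at least 2-fold, against 39.1% and 14.9% of all genes. The other 2, both transcription factors, were called higher, neither by 2-fold. The median log2 fold change of the 10 was -1.85, and with at least 10 counts in every library 2 were 2-fold lower. POU3F2, a factor of neural progenitors, had 2431 against 1 counts in wt and cis cells. LIN28A (ENSG00000131914, chromosome 1, 26737308 to 26756219) and LIN28B encode proteins that block maturation of the let-7 microRNAs. LIN28A was at 165, 166 and 166 CPM in wt libraries, and its 9070 against 2 counts gave a ratio of 4322 (95% interval 1196 to 35691). LIN28B was lower by less, at 261 ± 1.65 and 58.2 ± 2.89 CPM in wt and cis cells (log2 fold change -2.16, SE 0.0323). L1TD1, a gene of pluripotent cells, was at least 226-fold lower. Of the 33 germ cell and pluripotency genes, 27 were left out of the test or of the table for want of counts or of a matched symbol, so nothing is said of most of them.

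The markers chosen for leukocytes and endothelial cells were at or near 0. The 4 leukocyte markers summed to at most 0.371 CPM and the 2 endothelial markers matched of 3 to at most 0.131 CPM in any library. The stromal markers summed to 15.6 to 16.1 CPM in wt and 0.909 to 1.88 CPM in cis libraries, with PDGFRB, a receptor for PDGF, at 15.3 to 0.607 CPM from wt to cis cells, and FAP had 0 counts in every library.

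**Figure D2:**
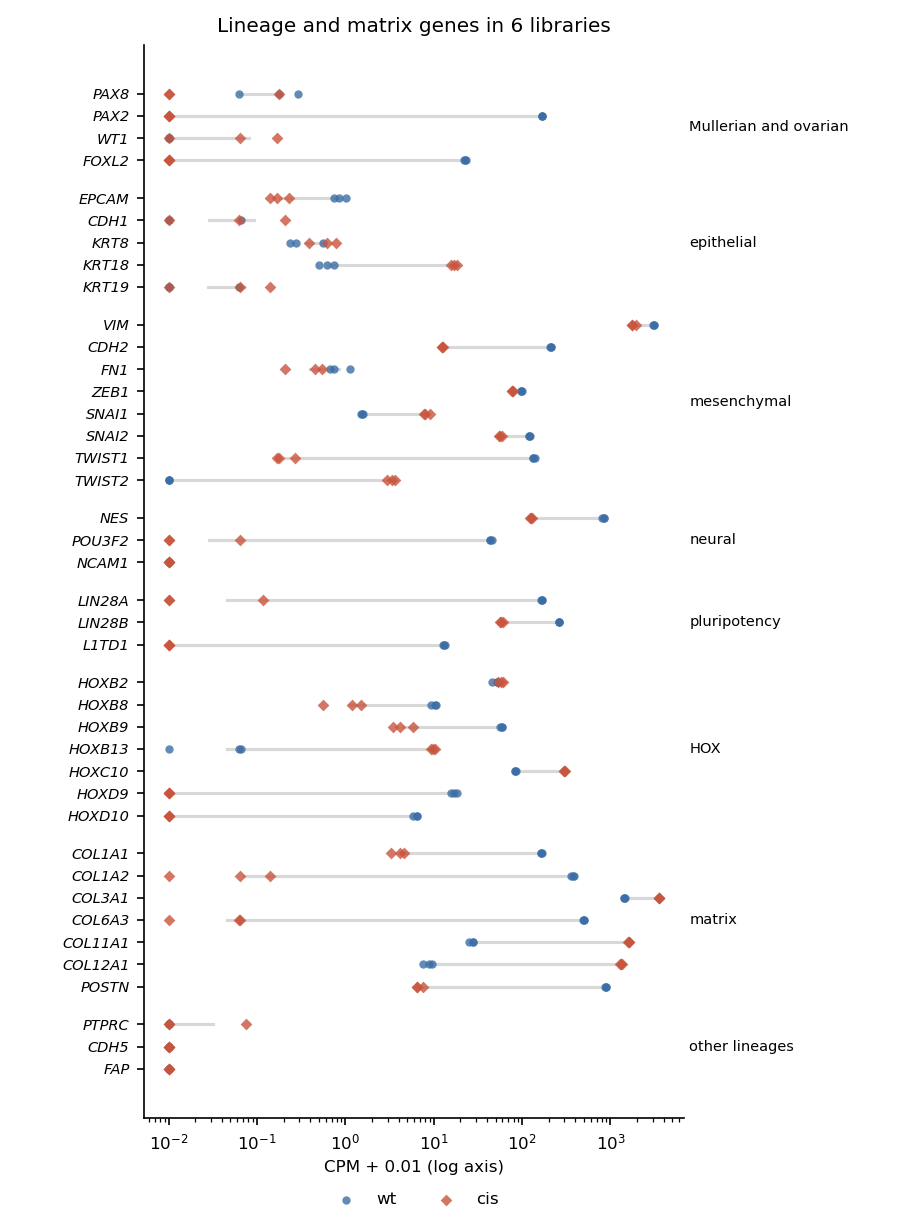
Lineage, HOX and matrix genes in the 6 libraries, as CPM plus 0.01 on a log axis. Blue circles are the 3 wt and red diamonds the 3 cis libraries, a grey line joins the group means, and points at 0.01 had 0 counts. The groups stand apart in TWIST1, LIN28A and HOXD9, which were high in wt, and in HOXB13, TWIST2 and COL12A1, which were high in cis cells, while the points of PAX8, CDH1 and FAP stay under 1.

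The HOX genes, which give cells their position along the body axis, were read cluster by cluster. None of the 11 HOXA genes had enough counts to be tested. All 5 HOXD genes tested were called 2-fold lower, 6 of 9 HOXB genes were lower and 1 higher, and of 6 HOXC genes 3 were higher and 1 lower. Of all genes, 14.9% were 2-fold lower and 9.72% higher. A gene that passed the filter on low counts through one line alone, such as HOXD9 or HOXD10, had to differ. With at least 10 counts in every library, 7 HOX genes were 2-fold lower and 2 higher (12 and 4 here). HOXD9 was at 15.8, 18.2 and 17 CPM in wt and at 0 in the cis libraries, at least 295-fold lower, and HOXD10 was at least 108-fold lower. The 5 HOXD genes had a median fitted log2 fold change of -8.47, or -5.43 with each such gene at its bound. In the HOXB cluster, HOXB9 (58.3 to 4.51 CPM) and HOXB8 had log2 fold changes of -3.71 and -3.25, HOXB2 had a log2 fold change of 0.18, and HOXB13, at the far end of the cluster, had 515 against 2 counts in cis and wt cells, a ratio of 270.2 (95% interval 74.4 to 2237). HOXC10 was at 84 ± 1.43 and 303 ± 4.5 CPM in wt and cis cells (log2 fold change 1.85, SE 0.0286), and HOXC6 had a log2 fold change of 0.31. So the one HOXB member that was 2-fold higher is the one of the posterior end. The HOXB9 span overlaps HOXB7, and its reads are less certain.

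The pathway lists were described by the number of their tested members that were called. Of 1339 genes in 45 lists, 1331 were in the table and 1021 were tested. A member that passed the filter on low counts through one line alone had to differ, so the shares below describe the tested members and test nothing. The share of members at least 2-fold lower was highest in the interferon list (73.0%), followed by the neural (70%), HOX (60%), Mullerian (58.3%) and integrin lists (57.1%), against 14.9% of all genes. The metallothionein list had the highest share at least 2-fold higher (66.7%), from 3 genes tested, MT1X, MT2A and their regulator MTF1, of which MT2A was not called 2-fold. It was followed by WNT genes (36.6%), the list of aldehyde dehydrogenases and stem-like markers (33.3%) and AP-1, EGR and KLF factors (33.3%), against 9.72% of all genes. Where at least 10 counts were asked of every library, members 2-fold lower fell in number to 2 for the neural, 7 for the HOX, 3 for the Mullerian and 4 for the integrin list (7, 12, 7 and 8 here). In the cytosolic ribosomal proteins and the mitochondrially encoded respiratory chain, 0 of 32 and 0 of 13 members made a 2-fold call. Without the limit on size, 20 ribosomal protein genes were called higher and 8 lower, and 1 gene of the mitochondrial genome was called lower.

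**Figure D3:**
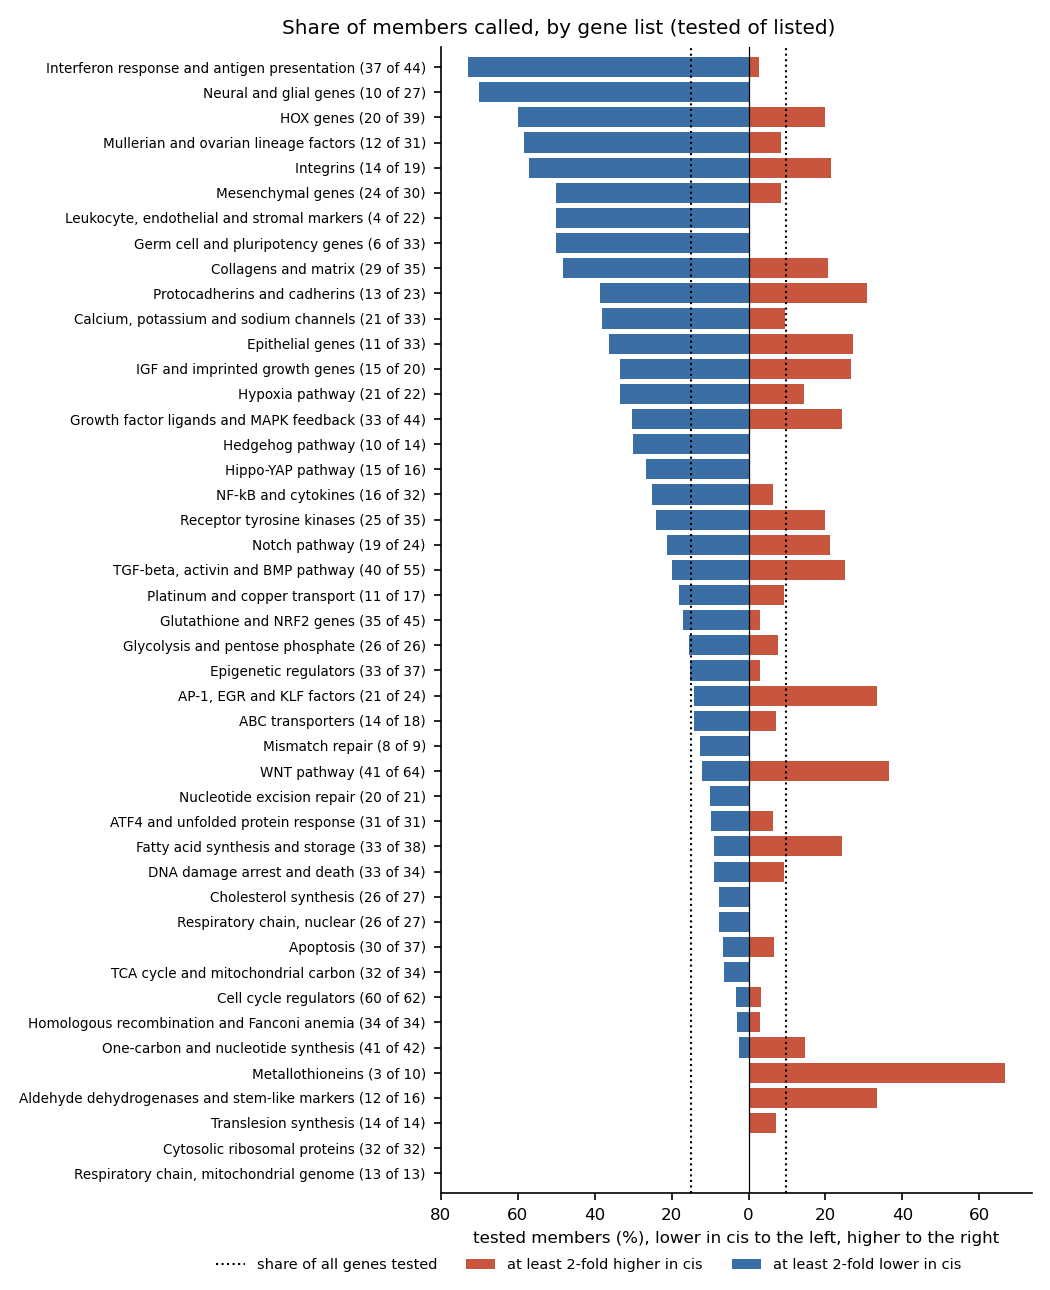
Share of the tested members of 45 gene lists called at least 2-fold lower (blue, to the left) or higher (red, to the right) in cis cells, in percent, with the number tested of the number listed beside each name. The dotted lines mark the shares over all 14431 genes tested, 14.9% lower and 9.72% higher, and the interferon list has the longest blue bar.

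Interferons signal through receptors to a complex with STAT2 and IRF9, which binds the interferon-stimulated response element (ISRE) in the promoters of antiviral genes. Interferon gamma acts through a separate motif (GAS), and NLRC5 switches on the genes by which cells show peptides on MHC class I. The promoters of 5 genes are printed to show the ISRE beside the levels of its genes. Each is the RefSeq window of 250 bases before and 50 after the start on GRCh38.p14, 5′ to 3′ on the strand of the gene, and capitals mark GAAANNGAAA on either strand, overlapping matches included.
BST2 (chr19:17405581-17405880, minus strand): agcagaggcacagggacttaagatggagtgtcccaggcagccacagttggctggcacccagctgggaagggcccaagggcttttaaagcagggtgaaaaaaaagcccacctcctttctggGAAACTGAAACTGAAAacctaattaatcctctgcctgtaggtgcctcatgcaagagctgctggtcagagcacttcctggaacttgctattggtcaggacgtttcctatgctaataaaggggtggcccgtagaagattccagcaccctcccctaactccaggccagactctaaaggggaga
IFITM1 (chr11:313790-314089, plus strand): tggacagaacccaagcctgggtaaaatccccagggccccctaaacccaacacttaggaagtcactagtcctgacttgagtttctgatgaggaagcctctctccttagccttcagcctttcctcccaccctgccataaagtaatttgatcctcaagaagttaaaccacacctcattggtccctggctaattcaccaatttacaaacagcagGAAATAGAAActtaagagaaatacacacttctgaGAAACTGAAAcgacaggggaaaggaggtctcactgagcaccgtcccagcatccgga
IFI27 (chr14:94110486-94110785, plus strand): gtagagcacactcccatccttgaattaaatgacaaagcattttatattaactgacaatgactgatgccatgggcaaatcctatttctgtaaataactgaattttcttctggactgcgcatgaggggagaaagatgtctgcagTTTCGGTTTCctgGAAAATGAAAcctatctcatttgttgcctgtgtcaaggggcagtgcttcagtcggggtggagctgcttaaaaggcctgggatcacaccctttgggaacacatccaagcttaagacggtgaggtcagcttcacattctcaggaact
B2M (chr15:44711267-44711566, plus strand): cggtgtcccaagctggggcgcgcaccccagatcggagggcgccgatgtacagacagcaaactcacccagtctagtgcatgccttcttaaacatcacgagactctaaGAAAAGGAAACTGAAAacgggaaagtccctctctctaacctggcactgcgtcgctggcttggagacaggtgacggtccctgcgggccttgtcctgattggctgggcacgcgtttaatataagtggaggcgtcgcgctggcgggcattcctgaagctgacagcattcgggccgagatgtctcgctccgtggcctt
IFIT1 (chr10:89392373-89392672, plus strand): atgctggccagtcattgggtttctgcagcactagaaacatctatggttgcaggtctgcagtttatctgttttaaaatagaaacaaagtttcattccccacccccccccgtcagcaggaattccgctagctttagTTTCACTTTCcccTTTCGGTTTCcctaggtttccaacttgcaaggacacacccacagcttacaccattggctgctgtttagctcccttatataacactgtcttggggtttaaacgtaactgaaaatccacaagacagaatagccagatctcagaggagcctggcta

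The interferon and antigen presentation genes were the list with most members lower in cis cells. Of 44 genes, 37 were tested, of which 27 were called 2-fold lower and 1 higher, against 14.9% and 9.72% of all genes. The median log2 fold change of the list was -1.60. All 13 antigen presentation genes tested were called lower, 12 of them by at least 2-fold, against 39.1% and 14.9% of all genes. Of 24 interferon-stimulated genes, 15 were at least 2-fold lower, 1 was higher and 8 were neither. HLA genes and the IFITM genes have near-identical relatives, so the split of reads among them is less certain.

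The transcription factors of the pathway were lower throughout. STAT2 was at 92.8 ± 1.78 and 23 ± 0.353 CPM in wt and cis cells and IRF9 at 5.97 ± 0.169 and 1.32 ± 0.418 CPM in wt and cis cells, with log2 fold changes of -2.01 and -2.15. IRF1, an early factor of the gamma response, was at 81.8 ± 2.79 and 15.7 ± 1.57 CPM in wt and cis cells (log2 fold change -2.37, SE 0.0545). The cis libraries lay below the wt libraries in these 3 genes. NLRC5 was at 102 ± 3.4 and 6.97 ± 0.728 CPM in wt and cis cells (log2 fold change -3.86, SE 0.0603, adjusted p = 1.61e-42). IFNG, the gene of interferon gamma itself, had means of 101 and 0 counts in wt and cis libraries. Whether this bears on the other genes of the list was not tested.

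The parts of the MHC class I machinery followed the same direction. B2M (ENSG00000166710, chromosome 15, 45003556 to 45011049), the light chain that all class I molecules share, was at 922, 904 and 881 CPM in wt and 187, 184 and 187 CPM in cis libraries (log2 fold change -2.28, SE 0.0252, adjusted p = 1.53e-48). HLA-B was at 44.3 ± 1.52 and 3.57 ± 0.842 CPM in wt and cis cells, HLA-C at 102 ± 1.66 and 36.3 ± 1.75 CPM in wt and cis cells and HLA-E at 26.8 ± 0.82 and 8.88 ± 0.685 CPM in wt and cis cells. Their log2 fold changes were -3.61, -1.50 and -1.60, so the loss differed in size between class I genes. TAP1, a subunit of the pump that moves peptides into the endoplasmic reticulum, was at 60.7 ± 0.801 and 5.66 ± 0.533 CPM in wt and cis cells (-3.41 on the log2 scale), and PSMB9, a subunit of the immunoproteasome whose span overlaps TAP1, at 19.6 ± 0.173 and 0.226 ± 0.188 CPM in wt and cis cells (-6.37). The trimming peptidases ERAP1 and ERAP2 were lower at -1.81 and -2.48. TAPBP, which loads peptides, was the tested member of this group that missed 2-fold (-0.94).

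The antiviral effectors split. BST2 (ENSG00000130303, chromosome 19, 17513748 to 17516439), which tethers virus particles to the cell surface, was at 276, 286 and 283 CPM in wt and 0.0653, 0 and 0.11 CPM in cis libraries, and its 15429 against 3 counts gave a ratio of 4901 (95% interval 1677 to 23769). IFITM1, which blocks entry of viruses, was at 108, 109.7 and 110.1 CPM in wt and 0.848, 1.12 and 0.827 CPM in cis libraries (-6.85 on the log2 scale), and its neighbour IFITM3 at 428 ± 12 and 159.9 ± 3.83 CPM in wt and cis cells (-1.42). IFI27 had 328 against 2 counts in wt and cis cells, a ratio of 156 (95% interval 42.9 to 1296). OAS2, which makes the activator of RNase L, was 27.5-fold lower. These genes were all but lost or much reduced in cis libraries. The IFIT genes, which bind foreign RNA, did not go together. IFIT3 was at 62.5 ± 2.12 and 11 ± 1.17 CPM in wt and cis cells (-2.49), but IFIT1 was at 245 ± 4.24 and 216 ± 3.36 CPM in wt and cis cells (-0.19), IFIT2 at 47.8 ± 1.15 and 44.3 ± 1.3 CPM in wt and cis cells (-0.11) and IFIT5 at 88.8 ± 1.2 and 109 ± 2.71 CPM in wt and cis cells (0.30). OASL was the member called 2-fold higher, at 0.585 ± 0.0854 and 1.29 ± 0.0185 CPM in wt and cis cells (1.13). IFIT2 kept its call in neither DESeq2 (adjusted p = 0.165) nor the fit of 36 libraries (adjusted p = 0.312), and the IFIT1, IFIT2 and IFIT3 spans overlap LIPA.

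The ISRE was found in the promoters of both kinds of genes. A window with GAAANNGAAA was held by 24 of the 33 listed interferon genes with a promoter (72.7%), against 4.38% of all 27305 genes with one. Of the genes at least 2-fold lower, 15 of 23 matched had it (65.2%), and of the other tested genes 6 of 6 had it, IFIT1 among them. TTCNNNGAA, the GAS motif, was held by 9 of 23 (39.1%) and 0 of 6 genes, against 9.38% of all genes. A match of letters is not a site of binding, and other windows were not searched.

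**Figure D4:**
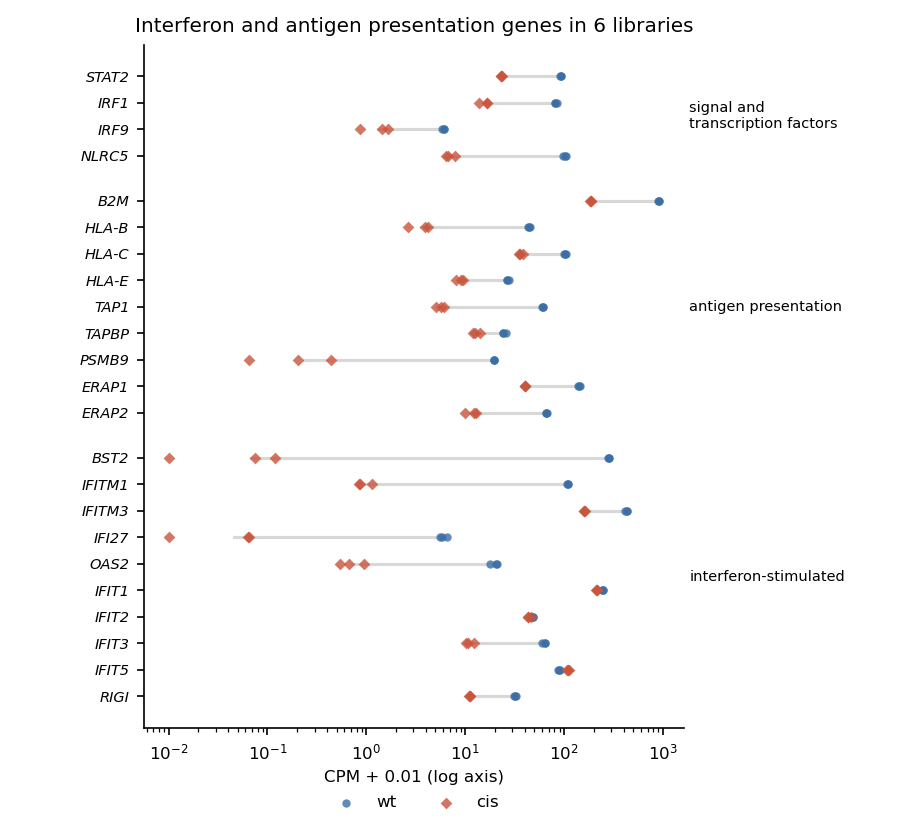
Interferon and antigen presentation genes in the 6 libraries, as CPM plus 0.01 on a log axis. Blue circles are the 3 wt and red diamonds the 3 cis libraries, a grey line joins the group means, and points at 0.01 had 0 counts. The cis libraries lie below the wt libraries in every gene drawn but IFIT5, and the groups lie close in IFIT1 and IFIT2.

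Genes of the extracellular matrix differed in both directions. Of 29 collagen and matrix genes tested among 35, 6 (20.7%) were called 2-fold higher and 14 (48.3%) lower in cis cells. The shares of all genes were 9.72% and 14.9%. COL12A1 (ENSG00000111799, chromosome 6, 75794042 to 75915983), a collagen that decorates fibrils, was at 9.62, 8.89 and 7.63 CPM in wt and 1310.1, 1348 and 1273 CPM in cis libraries (log2 fold change 7.23, SE 0.0423, adjusted p = 5.51e-49). COL11A1, a minor fibrillar collagen, was at 27 ± 1.41 and 1596 ± 12.6 CPM in wt and cis cells (log2 fold change 5.88, SE 0.033). COL3A1 was higher by less, at 1440.2 ± 14.4 and 3538 ± 35.8 CPM in wt and cis cells, and COL5A2 was at 2117 ± 21.9 and 2106 ± 16.1 CPM in wt and cis cells, which was not called. Against these, chains of collagen I and VI were all but lost. COL1A1 was at 164 ± 1.52 and 4.01 ± 0.687 CPM in wt and cis cells (-5.35 on the log2 scale) beside the loss of COL1A2, and COL6A1 was at 66.9 ± 1.78 and 67.6 ± 3.76 CPM in wt and cis cells, not called, beside the loss of COL6A3. POSTN, which encodes the matricellular protein periostin, was at 884, 889 and 869 CPM in wt and 7.57, 6.41 and 6.45 CPM in cis libraries (log2 fold change -7.02, SE 0.0402, adjusted p = 9.69e-60). The proteoglycan gene VCAN and the basement membrane gene NID2 were 209.9-fold and 108-fold lower, and LAMA1, a laminin chain, had 6064 against 3 counts in wt and cis cells. The fibrillin genes FBN1 and FBN2 moved in opposite directions (1.12 and -2.00).

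Integrins, the receptors for the matrix, also differed in both directions. Of 14 integrin genes tested among 19, 3 (21.4%) were called 2-fold higher and 8 (57.1%) lower, against 9.72% and 14.9% of all genes. ITGA6, the alpha chain of a laminin receptor, was at 21.4 ± 1.22 and 204 ± 3.5 CPM in wt and cis cells (log2 fold change 3.25, SE 0.0398), and ITGA3 had a log2 fold change of 1.19. ITGA1, of a collagen receptor, was at 61.9 ± 2.54 and 0.527 ± 0.265 CPM in wt and cis cells (-6.83), and ITGA8 had 672 against 1 counts in wt and cis cells. ITGAV and ITGB1 were lower at 3018 ± 39.8 and 977 ± 18.9 CPM in wt and cis cells and at 1193 ± 21.4 and 528 ± 4.24 CPM in wt and cis cells. Thus the laminin-binding alpha chains named here were higher, and the collagen-binding ITGA1 and the shared beta chain ITGB1 lower. ITGB5 had a log2 fold change of 0.32.

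WNT ligands act on FZD and LRP receptors and stabilise beta-catenin, and several secreted proteins stop them. Of 41 WNT genes tested among 64, 15 (36.6%) were called 2-fold higher and 5 (12.2%) lower in cis cells. The shares of all genes were 9.72% and 14.9%. By role, 5 of 9 ligands were higher and 1 lower, 5 of 9 antagonists higher and 0 lower, and 3 of 14 receptors higher and 3 lower. Among the antagonists, DKK2 was at 6.76 ± 1.03 and 71.3 ± 2.67 CPM in wt and cis cells (log2 fold change 3.40, SE 0.068), NOTUM, which strips a lipid from WNT proteins, at 2.3 ± 0.0768 and 18.8 ± 0.587 CPM in wt and cis cells, WIF1 at 41.9 ± 0.664 and 125 ± 2.4 CPM in wt and cis cells and DKK1 at 213 ± 3.17 and 453 ± 14.9 CPM in wt and cis cells. TNFRSF19 (ENSG00000127863, chromosome 13, 24144509 to 24250243), also called TROY, a receptor counted among WNT targets, was at 36.2, 38.1 and 35.4 CPM in wt and 553, 553 and 552 CPM in cis libraries (log2 fold change 3.92, SE 0.0307, adjusted p = 1.98e-54). LGR4, the receptor for the R-spondins that strengthen WNT signals, went the other way at 283 ± 1.54 and 22.8 ± 2.01 CPM in wt and cis cells (log2 fold change -3.63, SE 0.0391). FZD2 and the repressor TCF7L1 were also lower (-2.41 and -2.40). AXIN2, a common target of the pathway, was at 5.32 ± 0.247 and 5.26 ± 0.551 CPM in wt and cis cells, which was not called (adjusted p = 0.904 in the edgeR test), and the beta-catenin gene CTNNB1 had a log2 fold change of -0.35. ROR1, a receptor for WNT5A, had 0 counts in wt libraries and was at least 59.1-fold higher.

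Activins and BMPs signal through SMAD proteins, and ID genes are targets of BMP signals. Of 40 genes of this family tested among 55, 10 (25%) were called 2-fold higher and 8 (20%) lower. The shares of all genes were 9.72% and 14.9%. Beside INHBA, BMP7 was higher at 17.2 ± 0.705 and 74.6 ± 1.31 CPM in wt and cis cells (log2 fold change 2.12, SE 0.051). The targets ID1, ID2 and ID3 were at 29.8 ± 2.68 and 103 ± 10.8 CPM in wt and cis cells, at 40.1 ± 0.952 and 137 ± 2.57 CPM in wt and cis cells and at 205 ± 4.79 and 466 ± 19.2 CPM in wt and cis cells. Their log2 fold changes were 1.79, 1.77 and 1.18. FSTL3, which binds activin outside the cell, had a log2 fold change of 1.76 and the receptor BMPR2 1.19. On the lower side stood the co-receptor TGFBR3 (-2.01) and the activin receptor ACVR2B (-1.79). SMAD7, an inhibitor induced by the pathway, had a log2 fold change of 0.58.

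Receptor tyrosine kinases and their ligands differed in both directions. Of 25 receptors tested among 35, 5 (20%) were called 2-fold higher and 6 (24%) lower, against 9.72% and 14.9% of all genes. The ephrin receptors EPHA7 and EPHA3 were 384-fold and 191-fold lower, the PDGF receptor PDGFRA was at 308 ± 3.61 and 15 ± 1.71 CPM in wt and cis cells (log2 fold change -4.36, SE 0.0422) and IGF1R at 26.5 ± 2.2 and 1.93 ± 0.34 CPM in wt and cis cells. In cis cells FGFR2 had 191, 203 and 224 counts against 0 in each wt library, at least 216-fold higher, EPHB2 was at 3.05 ± 0.191 and 33.9 ± 0.979 CPM in wt and cis cells and MET at 1.32 ± 0.033 and 8.54 ± 0.925 CPM in wt and cis cells. EGFR and FGFR1 had log2 fold changes of 0.58 and -0.75.

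Of 23 ligands tested, 8 were called 2-fold higher and 8 lower (34.8% each), against 9.72% and 14.9% of all genes. HGF (ENSG00000019991, chromosome 7, 81328326 to 81399754), the ligand of MET, was at 3426, 3475 and 3457 CPM in wt and 904, 891 and 913 CPM in cis libraries (log2 fold change -1.94, SE 0.0239, adjusted p = 1.23e-46), so MET was higher and its ligand lower in cis cells. The PDGF ligands differed among themselves: PDGFC was at 2.21 ± 0.267 and 199 ± 4.55 CPM in wt and cis cells (log2 fold change 6.49, SE 0.0615, adjusted p = 4.03e-51) and PDGFA at 1.88 ± 0.284 and 26.8 ± 1.5 CPM in wt and cis cells, while PDGFD was 228-fold lower. VEGFC, a growth factor of lymphatic vessels, was at 1.72 ± 0.254 and 40.8 ± 0.643 CPM in wt and cis cells, FGF1 at 0.749 ± 0.304 and 11.5 ± 1.18 CPM in wt and cis cells and KITLG, the ligand of KIT, at 28.6 ± 1.59 and 175 ± 4.47 CPM in wt and cis cells. FGF5 and FGF18 had log2 fold changes of -4.16 and -3.97. MEST, an imprinted gene, had 14601, 14963 and 15683 counts in wt and 5, 3 and 2 counts in cis libraries, 4159-fold lower. The imprinted genes H19 and DLK1 moved apart. H19 was at 5.31 ± 0.563 and 29.2 ± 2.5 CPM in wt and cis cells, and DLK1 was at least 63.2-fold lower. IGF2BP1, which binds and stabilises messenger RNAs, was at 567 ± 14.1 and 94.8 ± 2.51 CPM in wt and cis cells (log2 fold change -2.58, SE 0.0275).

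The Notch list had 4 of 19 tested members 2-fold higher and 4 lower (21.1% each), against 9.72% and 14.9% of all genes. The number higher was 2 with either cis replicate 2 or wt replicate 2 left out. JAG1, a Notch ligand, was at 56.5 ± 3.16 and 3.62 ± 0.331 CPM in wt and cis cells and HES1, the classical target, at 24.5 ± 0.663 and 2.22 ± 0.0852 CPM in wt and cis cells, with log2 fold changes of -3.95 and -3.46, while HES2 had a log2 fold change of 2.20. In the Hedgehog list, 3 of 10 were 2-fold lower and 0 higher, led by the co-receptor BOC (70.4 to 2.25 CPM from wt to cis cells, -4.97), with GLI3 at -2.02. In the Hippo-YAP list 13 of 15 tested members were called lower, against 39.1% of all genes. At least 2-fold lower were 4 of the 15 (26.7%), against 14.9% of all genes, and 0 were 2-fold higher. Its targets CCN1 and CCN2 were at 142 ± 1.03 and 4.86 ± 0.467 CPM in wt and cis cells and at 20.8 ± 0.339 and 0.636 ± 0.2 CPM in wt and cis cells, with log2 fold changes of -4.87 and -5.02.

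The routes by which platinum enters and leaves the cell were read gene by gene. In the list of platinum and copper transport, 1 of 11 members tested (9.09%) was called 2-fold higher and 2 (18.2%) lower. Of 14 ABC transporters 1 (7.14%) was higher and 2 (14.3%) lower. Both lists lie near the shares of all genes, 9.72% and 14.9%. SLC31A1, the copper transporter CTR1 that carries platinum into cells, was at 154, 158 and 152 CPM in wt and 138, 147 and 149 CPM in cis libraries (log2 fold change -0.09, SE 0.0304, adjusted p = 0.00593), a call that was lost with cis replicate 1 left out (adjusted p = 0.0668), without the filter (0.0575) and in the fit of 36 libraries (0.574). The LRRC8 proteins form volume-regulated anion channels that pass platinum drugs. LRRC8C and LRRC8B were lower at 10.8 ± 1.06 and 2.61 ± 0.312 CPM in wt and cis cells and at 56.8 ± 1.57 and 18.5 ± 0.602 CPM in wt and cis cells, while LRRC8D and LRRC8A had log2 fold changes of -0.48 and 0.28. ATP7B, a copper exporter tied to platinum efflux, was lower at 35.1 ± 1.06 and 22 ± 0.573 CPM in wt and cis cells (-0.67). SLC47A1, the exporter MATE1, was higher at 19.2 ± 1.16 and 40.4 ± 0.947 CPM in wt and cis cells (1.07). ABCB1 had 0 counts in every library, and ABCC2, a glutathione conjugate pump, was at 1.57 ± 0.176 and 0.808 ± 0.0528 CPM in wt and cis cells. ABCG2 was at 0.927 ± 0.283 and 3.41 ± 0.472 CPM in wt and cis cells and ABCC1 at 202 ± 2.18 and 291 ± 3.71 CPM in wt and cis cells, both called higher, and the cholesterol pump ABCA1 was lower (38.2 to 3.92 CPM from wt to cis cells).

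Thiols that bind platinum were mixed. Of 35 glutathione and NRF2 genes tested among 45, 1 (2.86%) was called 2-fold higher and 6 (17.1%) lower. The shares of all genes were 9.72% and 14.9%. The one higher was SLC7A11, which imports cystine for glutathione, at 27.7 ± 0.488 and 70.1 ± 1.92 CPM in wt and cis cells (log2 fold change 1.34, SE 0.0466, adjusted p = 1.6e-28). GSTP1, the transferase most often tied to platinum, was at 310.4 ± 2.67 and 309 ± 5.44 CPM in wt and cis cells, which was not called (adjusted p = 0.811 in the edgeR test). NFE2L2, which encodes NRF2, had a log2 fold change of 0.15 and GCLC, of glutathione synthesis, 0.64. ME1, a malic enzyme that makes NADPH, was at 25, 26.2 and 25.9 CPM in wt and 0 in cis libraries, at least 447-fold lower. MT1X, a metallothionein with near-identical relatives, was at 0.952 ± 0.146 and 3.64 ± 0.532 CPM in wt and cis cells, and MTF1, the factor that drives metallothioneins, at 24.3 ± 1.06 and 53 ± 3.94 CPM in wt and cis cells.

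DNA repair genes made few 2-fold calls. In homologous recombination and the Fanconi pathway, 34 of 34 genes were tested, and 1 was called 2-fold higher and 1 lower (2.94% each), against 9.72% and 14.9% of all genes. BRCA1 was at 120.0 ± 1.41 and 153 ± 5.35 CPM in wt and cis cells (0.35), BRCA2 had a log2 fold change of -0.44, FANCL -1.06 and FAAP24 1.13. In nucleotide excision repair, which removes platinum lesions, 2 of 20 genes were 2-fold lower, ERCC5 (-1.07) and ERCC6 (-1.04), and 0 were higher. ERCC1 was at 99 ± 2.3 and 89.2 ± 2.62 CPM in wt and cis cells (-0.15), and its call was lost in the fit of 36 libraries (adjusted p = 0.447). In mismatch repair, MSH6 was lower at 279, 286 and 281 CPM in wt and 133, 136 and 138 CPM in cis libraries (log2 fold change -1.06, SE 0.027). REV3L, the catalytic subunit of the translesion polymerase zeta, had a log2 fold change of 1.04. PARP1 was at 622 ± 6.55 and 628 ± 6.99 CPM in wt and cis cells (adjusted p = 0.597 in the edgeR test).

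Genes of the arrest that follows DNA damage and of the cell cycle moved by small amounts with a few large exceptions. MDM2, a ubiquitin ligase, was at 133 ± 0.663 and 209 ± 1.17 CPM in wt and cis cells and CDKN1A, which encodes the kinase inhibitor p21, at 142 ± 2.6 and 90.9 ± 0.743 CPM in wt and cis cells, with log2 fold changes of 0.65 and -0.64. Of 33 members of this damage response list tested, 3 were called 2-fold higher and 3 lower (9.09% each). The shares of all genes were 9.72% and 14.9%. PMAIP1, which encodes the cell death protein NOXA, was at 1.53 ± 0.243 and 16.4 ± 0.871 CPM in wt and cis cells, and the transcription factor TP73 at 7.43 ± 0.569 and 36.5 ± 4.68 CPM in wt and cis cells, both higher. Of 60 cell cycle genes tested, 31 were called higher and 22 lower, against 39.4% and 39.1% of all genes, and 2 and 2 (3.33% each) made a 2-fold call. CCNE2, a cyclin of the G1 to S step, was at 4.68 ± 0.565 and 20.4 ± 0.412 CPM in wt and cis cells (2.12), and RB1, which restrains that step, at 91.3 ± 3.23 and 39.8 ± 1.4 CPM in wt and cis cells (-1.20). The proliferation marker MKI67 was at 429 ± 11.5 and 731 ± 34 CPM in wt and cis cells (0.77).

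In the apoptosis list, 30 of 37 members were tested, with 2 called 2-fold higher and 2 lower (6.67% each). The shares of all genes were 9.72% and 14.9%. Both pairs were of the group of death receptors and caspases. CASP1 and CASP4, the caspases of pyroptosis, had 1307 against 1 and 522 against 2 counts in wt and cis cells, ratios of 1246 (95% interval 223 to 49233) and 249 (95% interval 68.5 to 2059). CASP10, an initiator caspase, was at 1.78 ± 0.517 and 17.6 ± 0.755 CPM in wt and cis cells, and the death receptor gene TNFRSF21 at 5.9 ± 0.346 and 52.5 ± 4.41 CPM in wt and cis cells. None of the 12 genes tested in the BCL2 family group of this list made a 2-fold call. PMAIP1, also of that family and 2-fold higher (3.41), was counted in the damage response list above. MCL1 was at 669 ± 6.71 and 371 ± 2.57 CPM in wt and cis cells (-0.85).

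Transcription factors of the AP-1, EGR and KLF list, many of them of the immediate early response, differed in both directions. Of 21 tested, 11 were called higher and 9 lower, 7 and 3 of them by at least 2-fold. The 2-fold shares were 33.3% and 14.3%, against 9.72% and 14.9% of all genes. JUN was at 0.601 ± 0.234 and 11.4 ± 1.06 CPM in wt and cis cells (4.21) and EGR2 at 7.04 ± 0.361 and 38.1 ± 1.13 CPM in wt and cis cells (2.44). FOS, the partner of JUN in AP-1, was lower at 56.2 ± 2.76 and 16.5 ± 1.17 CPM in wt and cis cells (-1.77). ATF3, a stress factor, was lower at 20.6, 21.6 and 23 CPM in wt and 8.61, 9.03 and 8.71 CPM in cis libraries (log2 fold change -1.31, SE 0.0797, adjusted p = 2.38e-19). In the hypoxia list 3 of 21 (14.3%) were 2-fold higher and 7 (33.3%) lower. HIF1A was at 266 ± 3.21 and 122 ± 4.52 CPM in wt and cis cells (-1.12) and its target ADM at 35.4 ± 0.739 and 3.19 ± 0.45 CPM in wt and cis cells (-3.48), but CA12, a carbonic anhydrase, was higher at 45.8 ± 0.686 and 140.1 ± 2.48 CPM in wt and cis cells. CA9, the related enzyme, was at least 28.3-fold lower. Of 14 chaperones of the endoplasmic reticulum, 11 were called higher and 2 lower, against 39.4% and 39.1% of all genes. None of the 14 made a 2-fold call, and HSPA5 was at 1287 ± 23.5 and 2055 ± 25.4 CPM in wt and cis cells. In the ATF4 group, NUPR1 was lower at 46.7 ± 0.451 and 5.05 ± 0.697 CPM in wt and cis cells and TRIB3 higher at 79.7 ± 2.94 and 201 ± 6.49 CPM in wt and cis cells.

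Metabolic genes were described beyond the enzymes of serine synthesis, of which PHGDH and PSAT1 had log2 fold changes of -1.66 and -0.34. Of 41 genes of one-carbon and nucleotide synthesis tested, 28 were called higher and 10 lower, and 6 (14.6%) and 1 (2.44%) made a 2-fold call. Of all genes, 39.4% were called higher and 39.1% lower, 9.72% and 14.9% by at least 2-fold. AHCY (ENSG00000101444, chromosome 20, 32868074 to 32899608), which clears S-adenosylhomocysteine after methyl transfer, was at 346, 342 and 343 CPM in wt and 1604, 1621 and 1677 CPM in cis libraries (log2 fold change 2.25, SE 0.0249, adjusted p = 1.51e-48). CTH, which makes cysteine from cystathionine, was at 7.69 ± 0.688 and 39 ± 1.68 CPM in wt and cis cells (2.34) and GLDC, which splits glycine for one-carbon units, at 25.1 ± 1.67 and 106 ± 2.82 CPM in wt and cis cells (2.08). PRPS2 and IMPDH1, of purine synthesis, were higher (1.94 and 1.48), as was the nucleotidase NT5C2 (1.78). The mitochondrial SHMT2 had a log2 fold change of 0.15.

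Genes of energy production differed mostly by less than 2-fold. Of 26 nuclear genes of the respiratory chain tested, 22 were called lower and 3 higher, against 39.1% and 39.4% of all genes, with 2 (7.69%) lower by at least 2-fold, against 14.9% of all genes, among them ATP5F1B at 1305 ± 14 and 601 ± 6.89 CPM in wt and cis cells (-1.12), and the 13 genes of the mitochondrial genome had 1 called lower. Of 32 genes of the TCA cycle, 21 were called lower and 8 higher, 2 (6.25%) and 0 by at least 2-fold. Of 26 genes of glycolysis and the pentose phosphate pathway, 12 were called lower and 8 higher. By at least 2-fold, 4 (15.4%) were lower and 2 (7.69%) higher, against 14.9% and 9.72% of all genes. In glycolysis, SLC16A3, which exports lactate, was at 30.4 ± 2.37 and 0.233 ± 0.115 CPM in wt and cis cells, 128-fold lower, ALDOA at 1353 ± 19.5 and 608 ± 9.78 CPM in wt and cis cells (-1.15), and PFKP higher at 68.5 ± 2.06 and 266 ± 4.49 CPM in wt and cis cells (1.96). The glycogen branching enzyme gene GBE1 and the glycerol phosphate shuttle gene GPD2 were lower (-2.11 and -2.18).

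Lipid genes differed in both directions. Of 33 tested, 8 (24.2%) were called 2-fold higher and 3 (9.09%) lower, against 9.72% and 14.9% of all genes. FADS2 (ENSG00000134824, chromosome 11, 61560452 to 61634826), a desaturase of polyunsaturated fatty acids whose span overlaps FADS1 and FEN1, was at 598, 621 and 602 CPM in wt and 22.3, 22.7 and 24.8 CPM in cis libraries (log2 fold change -4.70, SE 0.0342, adjusted p = 1.17e-55). CPT1A, which brings fatty acids into mitochondria, was at 32.5 ± 1.38 and 209 ± 4.59 CPM in wt and cis cells (2.68), ACSL1, which activates them, at 46.3 ± 1.67 and 196 ± 3.92 CPM in wt and cis cells (2.08), and FABP5, a carrier, at 11 ± 0.888 and 92.9 ± 5.12 CPM in wt and cis cells (3.07), beside CD36 above. Of 26 genes of cholesterol synthesis, 17 were called lower and 5 higher, against 39.1% and 39.4% of all genes. The 2 (7.69%) that were at least 2-fold lower were HMGCS1 (-1.19) and INSIG2, a brake on the pathway (-2.92). Of 12 aldehyde dehydrogenases and stem-like markers tested, 4 (33.3%) were 2-fold higher and 0 lower. ALDH1A1 and ALDH1A3, which make retinoic acid, were at 1.5 ± 0.311 and 21.5 ± 0.913 CPM in wt and cis cells (log2 fold change 3.83, SE 0.121) and at 0.235 ± 0.13 and 14.1 ± 0.892 CPM in wt and cis cells (log2 fold change 5.84, SE 0.201).

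Genes of cell adhesion and of ion channels differed in both directions. CDH10 was lower (69.5 to 4.73 CPM from wt to cis cells), and PCDH17 and PCDH10 were higher (3.84 to 70.9 CPM and 124 to 488 CPM). SCN9A, a sodium channel of sensory neurons, was at 455 ± 6.53 and 1.47 ± 0.178 CPM in wt and cis cells, 307-fold lower, and the calcium channel gene CACNA1H was higher at 2.99 ± 0.511 and 169 ± 14.5 CPM in wt and cis cells (5.82). Of 33 epigenetic regulators tested, 1 (3.03%) was called 2-fold higher and 5 (15.2%) lower, against 9.72% and 14.9% of all genes. Among those lower were TET1, which oxidises methylated cytosine, at 85.9 ± 2.18 and 22.8 ± 1.03 CPM in wt and cis cells (-1.91), and DNMT3B, a DNA methyltransferase (-1.09).

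The position of genes, which no list used, set chromosomes 13 and 8 apart. Over the 201 protein-coding genes tested on chromosome 13, the median log2 fold change was -0.93, 88.1% had a log2 fold change below 0, and 43.8% were called 2-fold lower and 5.47% higher. Over the 430 genes on chromosome 8 the median was 0.41, with 84 genes (19.5%) called 2-fold higher and 56 lower. On the other chromosomes the medians ran from -0.08 on chromosome 19 to 0.20 on chromosome 20, the share 2-fold lower from 7.08% to 20.9% and the share 2-fold higher from 4.80% to 13.7%. RB1, SUCLA2 and PCDH9, all lower, lie on chromosome 13, as do TNFRSF19 and PCDH17, which were higher. FABP5 and ST3GAL1, both higher, lie on chromosome 8. Without serine and glycine, the median was -0.84 over 212 genes on chromosome 13 and 0.42 over 445 genes on chromosome 8. Copy number was not measured in these libraries.

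**Figure D5:**
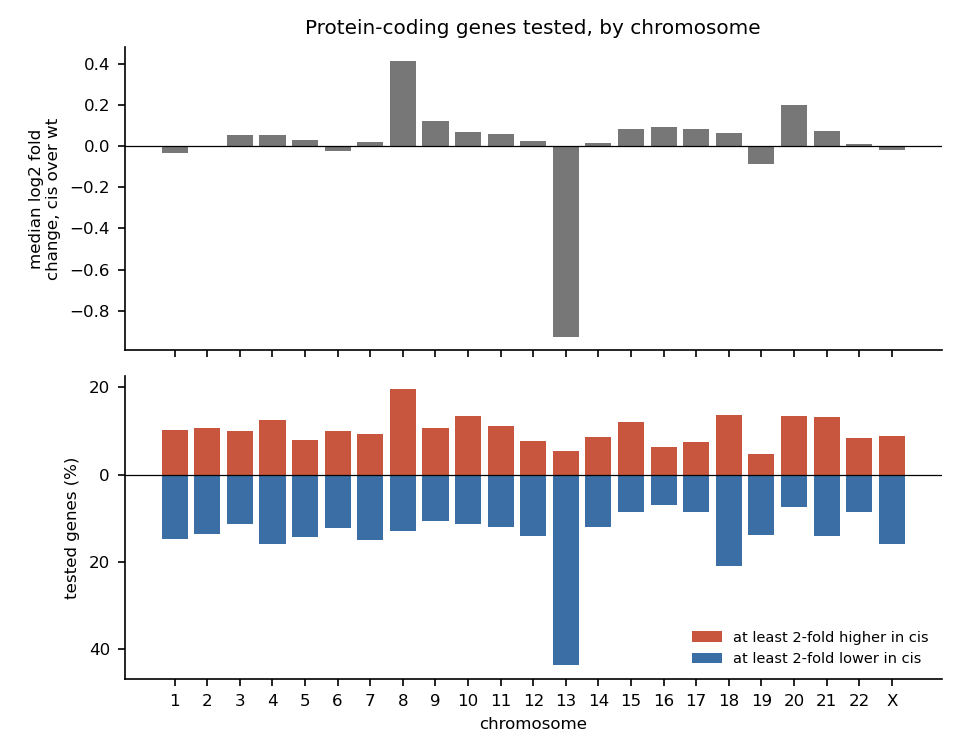
Median log2 fold change, cis over wt (upper panel), and percent of genes called at least 2-fold higher (red, up) or lower (blue, down) in cis cells (lower panel), over the protein-coding genes tested on each chromosome. Chromosome 13 has a median of -0.93 and chromosome 8 of 0.41, and the bars of the others lie between -0.08 and 0.20.

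The same lines were also sequenced after growth without serine and glycine, in 3 libraries each that the comparison above did not use. In these, 15.1% of 14939 genes were called 2-fold higher and 15.8% lower in cis cells. Of the 3549 2-fold calls in complete medium, 3406 were tested in this medium, 3261 had the same sign and 2682 were again called 2-fold in that direction, which is 75.6% of the calls in complete medium and 58.1% of the 4615 calls without serine and glycine. Of 217 and 87 genes seen in wt or cis cells alone, 148 and 69 met the same rule. Lineage and interferon genes named here had the same direction in both media, with differences in size. B2M had log2 fold changes of -2.28 and -2.88, CDH2 -4.07 and -1.24, and NES -2.72 and -2.28 with and without serine and glycine. The interferon list had 25 of 36 tested members 2-fold lower and 3 higher in the deprived cells, against 27 and 1 of 37 in complete medium.

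Of 243 genes looked at singly with a 2-fold call in complete medium, 147 were called in the edgeR interaction of line and medium, a test chosen after seeing the data, and 61 of these by at least 2-fold. CDH2, whose loss was smaller in the deprived cells, is one of them. Others of the 61 were near 0 in one line, where a few counts move the fitted fold. HOXD9, with a difference of 4.82, was at 0 and 0.216 CPM in cis cells with and without serine and glycine. Lists also had other counts in the deprived cells. Over all genes, 15.1% were 2-fold higher and 15.8% lower there, against 9.72% and 14.9% in complete medium. Of 26 cholesterol synthesis genes, 17 were 2-fold lower in cis cells without serine and glycine, against 2 in complete medium, with medians of -1.34 and -0.25. Of 21 AP-1, EGR and KLF factors, 13 were 2-fold higher, against 7. Of 31 ATF4 and unfolded protein response genes, 10 were 2-fold higher, against 2. Of 61 cell cycle genes tested, 11 were 2-fold lower, against 2 of 60. The neural list had 4 of 11 tested members 2-fold higher and 5 lower, against 0 and 7 of 10, and the Mullerian list 4 of 15 higher and 5 lower, against 1 and 7 of 12. MKI67 had a log2 fold change of 0.77 in complete medium and -0.76 without serine and glycine. COL3A1 had log2 fold changes of 1.30 and -0.76. The differences between the list counts in both media were not tested.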

How the data were processed

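RNA-seq libraries were prepared by the study from cells in RPMI medium with 10% FBS and sequenced. Alignment by the authors used STAR and GRCh37.p13, with SAMtools for file conversion, and HTSeq with GENCODE v19 gave the raw counts per gene that the authors deposited. The strand setting is not given in the sources used here. The methods speak of protein-coding exons, and the table lists 57820 genes of all kinds, with 97.84% to 98.26% of the counts of the 6 libraries on protein-coding genes. The 3 rows that name no gene stayed out, and reads on no feature were 6.14% to 8.18% of the counts. Symbols and positions were those of GENCODE v44 on GRCh37, where 55538 genes had a symbol.

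The groups were taken from the labels. Library pairs of a group differed by more than sampling noise (mean chi-square 1.63 to 4.53), which does not show that they are separate cultures. Each library counted as 1 sample in the fit. Counts were fitted with edgeR 4.0.16 in R 4.3.3 (TMM, filterByExpr, robust quasi-likelihood fit, glmQLFTest) on the 6 libraries alone, with Benjamini-Hochberg adjustment over all genes tested. The SE is the absolute log2 fold change divided by the square root of F. DESeq2 1.42.0 (Wald test), other normalizations, filters and fits, and each library left out were the alternatives. On counts simulated at the fitted dispersion of 0.000685, edgeR called 88 of 100 genes changed 1.5-fold and 100 of 100 changed 3-fold among 14257, with 9 false calls. In the simulation every gene had the same dispersion and few genes changed, in equal numbers up and down. Most genes were called in the data, so the false calls give no error rate for them. Ratios use exact Clopper-Pearson bounds. Tables and plots used Python 3.11.15, pandas 2.3.3, scipy 1.17.1 and matplotlib 3.10.9.

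The comparison and the gene lists were chosen with earlier results of these data known. Named genes were the 10 with the largest change in each direction, the 3 members of each list with the largest change in each direction (called 2-fold, mean of at least 50 counts, groups not overlapping), the 10 with most counts among those seen in one line only, the cell type markers, and CDKN1A, MDM2, SLC31A1, ATP7B, ABCB1, ABCC2, ERCC1, BRCA1, GSTP1, NFE2L2, PARP1, PHGDH and PSAT1. Some genes that this rule or the lists cover are not reported here. Named outside this rule, after their values were seen, were ABCC1, ABCG2, ACSL1, ACTA2, ALDOA, ATF4, AXIN2, B2M, BMPR2, BRCA2, CA9, CALD1, COL1A1, COL5A2, COL6A1, CTNNB1, DKK1, DLK1, DLX6, DNMT3B, EGFR, ERAP1, ERAP2, FBN1, FBN2, FGFR1, FSTL3, GCLC, HGF, HIF1A, HLA-B, HLA-C, HLA-E, HOXB2, HOXB8, HOXC6, HSPA5, ID2, ID3, IFIT1, IFIT2, IFIT3, IFIT5, IFITM3, IGF1R, IMPDH1, IRF1, IRF9, ITGB1, ITGB5, KITLG, LRRC8A, LRRC8D, MCL1, MEIS2, MKI67, MT1X, NID2, NLRC5, NR2F1, NT5C2, OAS2, OASL, PDGFA, PRPS2, PSMB9, ROR1, SHMT2, SMAD7, STAT2, TAGLN, TAP1, TAPBP, TPM2, TWIST2, VCAN and WIF1, and also CLDN1, ELF3, MT2A, PRSS8 and TJP3. IFNG was also named after its values were seen. The spans of 61 of 329 genes examined overlap a gene with over 10% of their counts, so their reads are less certain.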

Additional observations from a re-analysis of the deposited data

Results flagged for a closer look

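ATF3, a stress-induced transcription factor, differed between the lines in opposite directions in the 2 media. In complete medium it was lower in cis cells (21.7 ± 1.17 and 8.79 ± 0.219 CPM in wt and cis cells), and without serine and glycine it was higher, at 16.9 ± 1.21 and 77.6 ± 0.823 CPM in wt and cis cells. The cis over wt log2 fold changes were -1.31 and 2.19, and their difference of 3.51 (SE 0.0909, adjusted p = 1.68e-27) came from the interaction of line and medium in an edgeR fit of the 12 libraries, a test chosen after seeing the data. All 3 cis libraries lay below the wt libraries in complete medium and above them in the other. Of 243 genes looked at singly with a 2-fold call in complete medium, 147 were called in this interaction, and ATF3 was the one with 2-fold calls in opposite directions. Over all genes it was 1 of 24 with 2-fold calls in opposite directions in both media, among the 3549 called in complete medium.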

How the results depend on the processing

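None of the genes looked at singly changed direction under DESeq2, DESeq2's size factors, total counts without TMM, no filter, one fit over the 36 libraries, a filter of at least 10 counts in every library, protein-coding genes alone or each library left out. Of the repeats of their values, 3798 stayed on their side of the threshold, 24, over 11 genes (FN1, ZEB1, SLC31A1, ERCC1, IFIT2, TPM2, HOXB2, BRCA2, SHMT2, ATF4 and TBX1), lost the call, 10 of them in the fit over the 36 libraries, where all conditions share one spread, and 1 gained it (KRT8, log2 fold change 1.21 without wt replicate 2). Asking for at least 10 counts in every library removes genes absent from one line, and gave 861 genes 2-fold higher and 1124 lower (1402 and 2147 in the report). Members 2-fold lower were then 3 for Mullerian factors, 1 for epithelial genes, 4 for integrins, 2 for neural genes, 7 for HOX genes, 2 for Notch, 6 for growth factors, 3 for IGF and imprinted genes and 1 for NF-kB and cytokines (7, 4, 8, 7, 12, 4, 10, 5 and 4 in the report's fit). Members 2-fold higher were 2 for HOX genes, 6 for TGF-beta and 5 for fatty acid genes (4, 10 and 8). With edgeR's glmTreat against 1.5-fold, 7 Notch genes and 10 receptor tyrosine kinases were lower (4 and 6). With no filter, 7 epithelial genes and 8 protocadherins and cadherins were lower (4 and 5), from genes added to the test. With a library left out, the Notch genes 2-fold higher ran from 2 to 5 (4), and the cause was not tested. At most 1 count in each library of the line without the gene left 134 and 51 genes seen in wt or cis cells alone, and a mean of at least 200 counts left 100 and 41 (217 and 87). The medians of chromosomes 13 and 8 (-0.93 and 0.41) were -0.94 and 0.40 with DESeq2's size factors, -0.90 and 0.44 with no filter, -0.91 and 0.43 over 36 libraries, and -0.96 and 0.39 in a fit of protein-coding genes alone. With at least 10 counts in every library, that of chromosome 8 was 0.40. With a library left out they ran from -0.95 to -0.91 and from 0.40 to 0.42. No paired analysis was possible because the labels give no replicate numbers within a group. With 15287889 to 18788646 counts per library, counting error is small for most genes named, and genes under 1 CPM rest on fewer than 20 counts each.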
